A study of Homo sapiens with 12 samples.

Results

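The comparison set IFNAR1 knockout cells that had been pulsed with an MPS1 inhibitor against IFNAR1 knockout cells given interferon beta. All cells were NCI-H1944, a human lung adenocarcinoma line. The members were the libraries labelled IFNAR1sg MPS1i (IFNAR1 knockout genotype, BAY-1217389 at 100 nM for 48 h, then washout and 24 h of culture) and those labelled IFNAR1sg IFNb (same genotype, recombinant IFNb at 5 ng/ml in the 24 h of culture), 2 libraries each and 4 of the 12 libraries of the study. Libraries used beside them were IFNAR1sg DMSO, and SCR MPS1i, SCR IFNb and SCR DMSO, where SCR cells carry a wild-type genotype label, again with 2 libraries each. The labels do not say whether the IFNb cells had first received DMSO, whether the IFNAR1sg cells were 1 clone or a pool, or whether replicates came from separate cultures, so p-values measure the spread between these libraries, which may be technical.

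RNA had been collected from cell lysates with J2, an antibody that binds double-stranded RNA, and then sequenced. The deposited table counts reads in 5254113 stranded genomic regions, most of them intronic, antisense or intergenic. Without input RNA beside it, a higher J2 value can stand for more of a transcript, for a larger double-stranded share of it, or for both, and fewer cells and less RNA per cell cannot be told apart. The pulse libraries held 7147801 and 7415227 reads, and the IFNb libraries 7430687 and 6783514 reads; the range over all 12 was 3739443 to 7430687. Values are given for replicate 1 and replicate 2 as CPM (edgeR's normalised read count, scaled to the library size after TMM factors). Changes are log2 fold changes of IFNAR1sg MPS1i over IFNAR1sg IFNb ± SE (n = 2 libraries each), and a feature was called at an adjusted p under 0.05 in the quasi-likelihood test of edgeR.

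MPS1 (the product of TTK) is the kinase of the spindle checkpoint, which holds cells in mitosis until every chromosome is attached. Cells that divide without it missegregate chromosomes, and aneuploid cells commonly switch on p53 and stress genes and leave the cell cycle. Type I interferons bind a receptor made of IFNAR1 and IFNAR2, whose kinases JAK1 and TYK2 activate transcription factors that bind interferon-response elements of the antiviral genes. RIG-I and MDA5 (the products of RIGI and IFIH1) sense double-stranded RNA and signal through MAVS to IRF3, which can switch on part of the same antiviral genes with no interferon receptor. A comparison of the pulse with interferon inside receptor-knockout cells thus addresses pulse changes apart from that receptor only as far as its signalling is lost.

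The interferon-stimulated IFIT genes serve as the reference point, because IFIT1 responded to IFNb in these cells while IFIT5 did not pass the test. IFIT proteins bind foreign RNA ends and block its translation. The 250 bases before the annotated start are shown for IFIT1, IFIT3 and IFIT5 (RefSeq, GRCh38.p14, all on the plus strand of chromosome 10), with matches to the interferon-response core in capitals. The core was searched on both strands as a GAAA box, 2 bases of any kind (N) and a second GAAA box. All matches lay on the opposite strand, so they read as its reverse complement.
IFIT1, chr10:89392373-89392622: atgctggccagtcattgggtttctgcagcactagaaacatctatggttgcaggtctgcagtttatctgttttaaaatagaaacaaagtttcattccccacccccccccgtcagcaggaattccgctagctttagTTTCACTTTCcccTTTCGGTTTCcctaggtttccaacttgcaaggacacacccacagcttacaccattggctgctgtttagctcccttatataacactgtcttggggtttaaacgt
IFIT3, second start, chr10:89332279-89332528: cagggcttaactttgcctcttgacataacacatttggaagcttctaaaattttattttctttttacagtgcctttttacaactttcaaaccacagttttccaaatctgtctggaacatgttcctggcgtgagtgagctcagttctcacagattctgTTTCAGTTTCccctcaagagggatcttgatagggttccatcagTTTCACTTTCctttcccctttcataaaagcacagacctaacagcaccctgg
IFIT5, chr10:89414318-89414567: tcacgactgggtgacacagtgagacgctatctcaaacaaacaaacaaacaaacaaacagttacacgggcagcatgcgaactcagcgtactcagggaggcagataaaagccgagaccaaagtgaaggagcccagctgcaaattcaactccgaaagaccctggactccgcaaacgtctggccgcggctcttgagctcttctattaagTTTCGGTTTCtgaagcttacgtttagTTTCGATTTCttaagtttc
Each window held 2 matches. Their first bases lay 116 and 103 bases before the start in IFIT1, 94 and 51 in IFIT3, and 45 and 19 in IFIT5. Of all 35116 RefSeq windows of that length, 1061 (3.02%) held the motif, and 35 of the 60 listed interferon-stimulated genes in the table (58.3%) had it before at least 1 start. A match describes the letters only and is not evidence that a factor was bound.

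The labels were checked first. IFNAR1, the receptor subunit targeted in both groups, had a gene sum of 3.47 and 3.22 CPM in IFNAR1sg MPS1i against 3.23 and 2.92 CPM in IFNAR1sg IFNb, from 21 to 25 reads a library. Its region sharing exon bases (chromosome 21, 33343676 to 33344099, plus strand) held 2.02 and 1.34 CPM in IFNAR1sg MPS1i, 2.33 and 1.53 CPM in IFNAR1sg IFNb and 2.73 and 1.69 CPM in IFNAR1sg DMSO, against 7.08 to 9.54 CPM in the 6 SCR libraries. This region shares only 1 base with an exon and held 10 to 18 reads in each IFNAR1sg library. Reads in it were thus lower in the knockout groups than in SCR but not at 0.

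Some libraries stood apart and bear on the results below. Both IFNAR1sg MPS1i libraries held a set of genes, led by NTM and TENM2, far above every other library, and their values are given together. Both SCR IFNb libraries covered fewer regions than all others, which touches comparisons with SCR IFNb but not the levels in IFNAR1sg cells.

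The second check went against a full loss of interferon response. Of the 68 interferon-stimulated genes that passed the filter on low counts, of 77 listed, 43 rose and 0 fell with IFNb against DMSO in IFNAR1sg cells (median log2 change 1.09), where 0.648% of all gene sums rose and 0.655% fell. In SCR cells the corresponding count was 67 of 68 (median 2.97; 8.01% of all gene sums rose and 39.3% fell). The IFNb response differed between genotypes for 54 of the 68, all smaller in IFNAR1sg, beside 4.31% of all gene sums smaller and 28.9% larger. The IFNAR1sg IFNb libraries therefore show a reduced interferon response, not an absent one, and the comparison is between the pulse and that residual response. Whether changes with the pulse passed through remaining receptor signalling was not tested. The 5 gene sums with the smallest p for IFNb against DMSO in IFNAR1sg cells were RMI2 (log2 change 2.12 ± 0.11), TRIM5 (2.01 ± 0.16), TRIM14 (1.04 ± 0.08), MX1 (2.76 ± 0.23) and IFIT1 (2.34 ± 0.20).

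Messages of the interferons themselves were nearly undetected: IFNB1 had 0 reads in all 12 libraries, CXCL10 had 0 reads in the 4 libraries compared, and IFNL1 had 3 and 0 reads in IFNAR1sg MPS1i against 0 and 0 in IFNAR1sg IFNb. A gene sum here leaves out regions that share exon bases and so rests mostly on intronic reads.

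Against DMSO in IFNAR1sg cells the pulse raised 59 of the 68 interferon-stimulated genes and lowered 0 (median 1.57), where 27.1% of all gene sums rose and 19.7% fell. Of the 68, 25 were higher in IFNAR1sg MPS1i than in IFNAR1sg IFNb, 3 were lower and 40 were not called (median of the 40, 0.11). Over all 14348 gene sums tested, 28% were called higher and 16.2% lower. The share of the list called higher (25 of 68) was thus not far from the background and is not read as a trait of the list. The share called lower (3 of 68) lay below it. The list's median change was 0.28, against 0.20 for all gene sums; with gene sums scaled by their own TMM factors the list counted 21 higher and 12 lower with a median of 0.12, and all gene sums had a median of 0.03.

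The first of 4 patterns in the levels was a gene that both treatments raised to a similar level. MX1, a dynamin-like antiviral GTPase, had 23.8 and 16.5 CPM in IFNAR1sg MPS1i, 23.1 and 26.7 CPM in IFNAR1sg IFNb and 3.82 and 3.52 CPM in IFNAR1sg DMSO. The 2 treated groups overlapped and both lay above every DMSO library (change between them -0.31 ± 0.17, adjusted p = 0.14). OAS2, which makes the activator of RNase L, held 9.54 and 7.38 CPM in IFNAR1sg MPS1i, 9.7 and 8.34 CPM in IFNAR1sg IFNb and 0.728 and 0.261 CPM in IFNAR1sg DMSO. PARP9, a mono-ADP-ribosylation factor picked after its values were seen, had 38.9 and 40.0 CPM in IFNAR1sg MPS1i against 38.8 and 39.9 CPM in IFNAR1sg IFNb. Of the 43 genes raised by IFNb, 26 were not called between pulse and IFNb. Over all gene sums 28% were called higher and 16.2% lower, so most of these were not called either. A missing call does not show that levels were equal.

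The second pattern was a gene raised by both and higher after the pulse. IFIT1 had 42.8 and 32.6 CPM in IFNAR1sg MPS1i against 28.2 and 21.1 CPM in IFNAR1sg IFNb, with 4.73 and 4.95 CPM in IFNAR1sg DMSO (0.61 ± 0.14, adjusted p = 0.00027). RIGI held 75.4 and 71.1 CPM in IFNAR1sg MPS1i, 42.7 and 45.7 CPM in IFNAR1sg IFNb and 16.6 and 17.3 CPM in IFNAR1sg DMSO (0.73 ± 0.12, adjusted p = 2.8e-07). In both genes every pulse library stood above every IFNb library, which in turn stood above DMSO. OASL, an OAS-like protein without synthetase activity that boosts RIG-I signalling, showed a wider gap, with 52.3 and 53.7 CPM in IFNAR1sg MPS1i against 14.9 and 22.8 CPM in IFNAR1sg IFNb (1.498 ± 0.16, adjusted p = 4.5e-15). SP110, a nuclear body protein, had 43.8 and 33.7 CPM in IFNAR1sg MPS1i against 12.7 and 15.8 CPM in IFNAR1sg IFNb (1.44 ± 0.17).

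The third pattern was a gene higher after the pulse whose change with IFNb alone was not called, which 11 of the 25 showed. A missing call, above all with few reads, does not show that IFNb left a gene unchanged. RSAD2, the antiviral radical enzyme viperin, had 7.08 and 9.66 CPM in IFNAR1sg MPS1i against 1.16 and 2.64 CPM in IFNAR1sg IFNb and 0.91 and 1.3 CPM in IFNAR1sg DMSO (2.15 ± 0.35, adjusted p = 8.6e-08). IFIT5 had 37 and 30 reads in IFNAR1sg MPS1i against 4 and 4 reads in IFNAR1sg IFNb (3.08 ± 0.58, adjusted p = 4e-06), and IFIT2 had 39 and 58 reads against 9 and 19 reads (1.83 ± 0.37). Both have few reads, yet their groups did not overlap. ISG15, a ubiquitin-like modifier, belonged here with 14.2 and 11.5 CPM in IFNAR1sg MPS1i against 7.63 and 9.45 CPM in IFNAR1sg IFNb (0.59 ± 0.23, adjusted p = 0.031), a call that was lost in 7 alternatives.

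The fourth pattern, a gene lower after the pulse than after IFNb, held for RNF213, USP18 and EIF2AK2. USP18, the protease that removes ISG15 and restrains the interferon receptor, had 18.8 and 14.9 CPM in IFNAR1sg MPS1i against 24.4 and 23.9 CPM in IFNAR1sg IFNb (-0.52 ± 0.17, adjusted p = 0.0081). RNF213, a large ubiquitin ligase, had 143 and 147 CPM in IFNAR1sg MPS1i against 188 and 212 CPM in IFNAR1sg IFNb (-0.46 ± 0.10). EIF2AK2, the double-stranded RNA-activated kinase PKR, had 135 and 121 CPM in IFNAR1sg MPS1i against 162 and 152 CPM in IFNAR1sg IFNb (-0.29 ± 0.10, adjusted p = 0.014). USP18 and EIF2AK2 lay above DMSO in both treated groups.

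**Figure D1:**
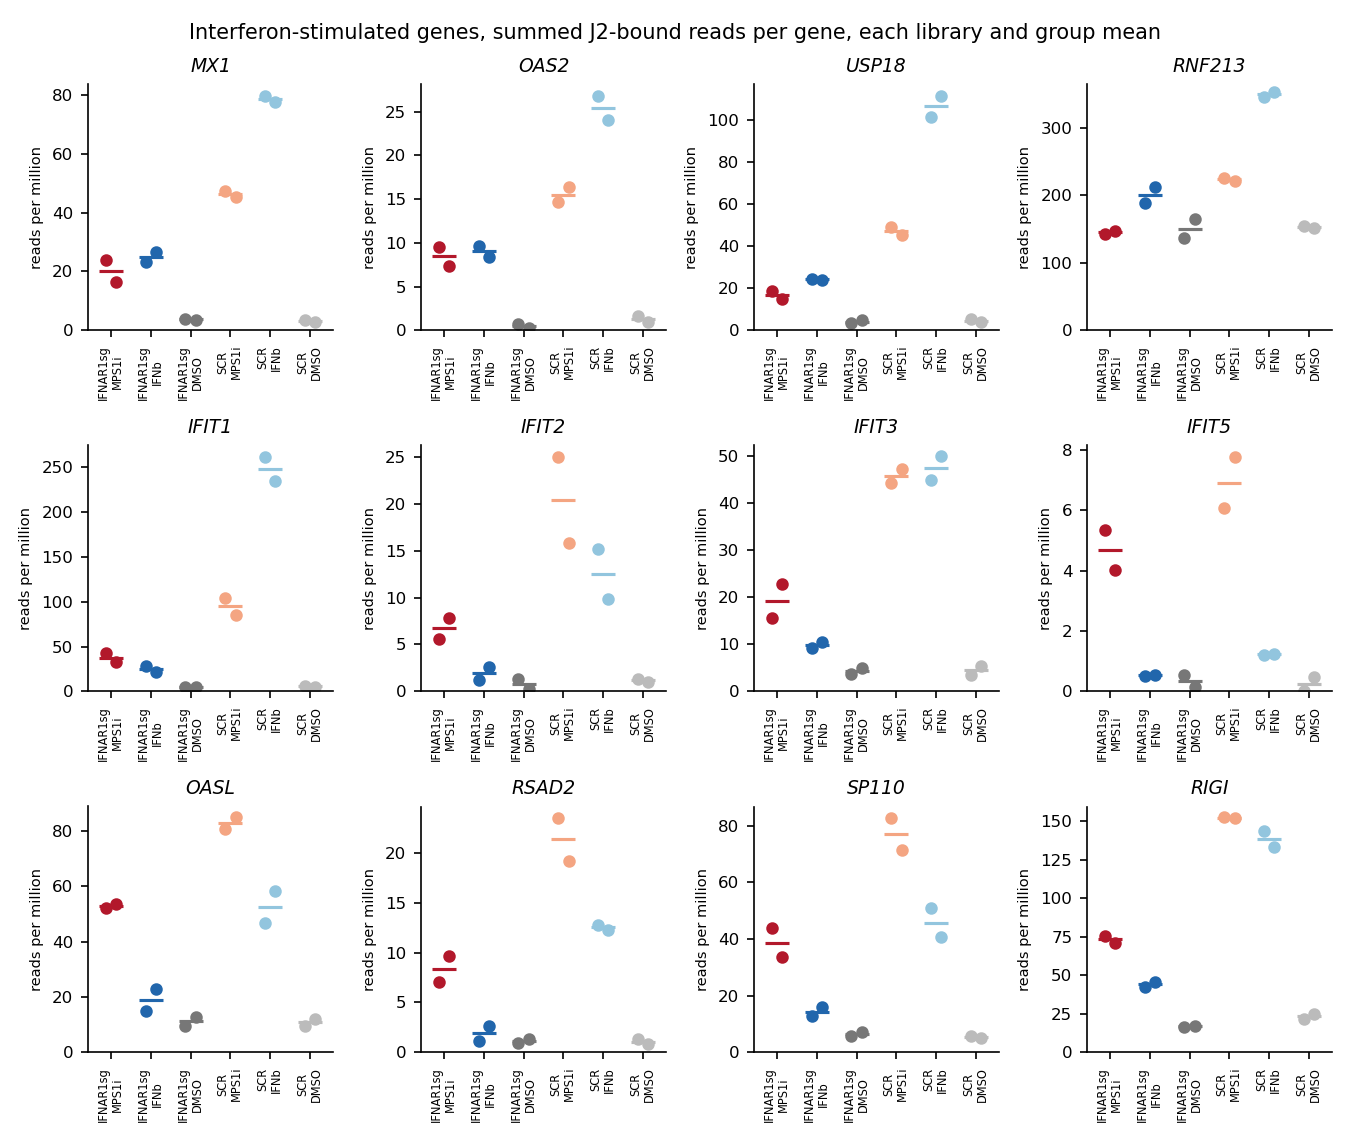
CPM of 12 interferon-stimulated genes in the 6 groups of genotype and treatment, on an axis from 0 in each panel; dots are libraries and the bar is the group mean. MX1 and OAS2 sit at like heights in IFNAR1sg MPS1i and IFNAR1sg IFNb, while OASL, SP110, RSAD2 and IFIT5 stand higher in both IFNAR1sg MPS1i libraries.

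Receptors and enzymes of double-stranded RNA did not move as a block. Of 31 tested members of 34, 5 were called higher (OASL, OAS1, RIGI, IFIH1 and SUPV3L1) and 9 lower, with a median of -0.06. Beside them stand 28% higher and 16.2% lower of all gene sums. IFIH1 had 84.7 and 87.4 CPM in IFNAR1sg MPS1i against 62.1 and 50.4 CPM in IFNAR1sg IFNb (0.61 ± 0.12). Among the lower members were the RNA helicase DHX9, which unwinds Alu hairpins and had 38.4 and 27.5 CPM in IFNAR1sg MPS1i against 59.1 and 71.4 CPM in IFNAR1sg IFNb (-0.99 ± 0.14, adjusted p = 1.6e-09), and the adaptor MAVS (-0.94 ± 0.23). ZC3HAV1, the antiviral protein ZAP, fell by 0.52 on the log2 scale in intronic reads but was higher by 0.34 when exon-sharing regions were kept. ADAR, the editing enzyme that marks self RNA, was not called (0.16 ± 0.15).

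In the DNA-sensing and lamina list, 4 of 10 tested members of 15 were higher and 4 lower. CGAS, the cytosolic DNA sensor, had 46 and 50.1 CPM in IFNAR1sg MPS1i against 83.8 and 90.6 CPM in IFNAR1sg IFNb (-0.86 ± 0.12, adjusted p = 2.2e-09). LMNB1, a lamin of the nuclear envelope, fell by 0.90, whereas ENPP1, which breaks down the cGAS product cGAMP, had 10.7 and 8.99 CPM in IFNAR1sg MPS1i against 1.29 and 2.22 CPM in IFNAR1sg IFNb (2.48 ± 0.36). Antigen presentation gave 2 higher and 2 lower of 12 tested members of 21. Of all gene sums 28% were called higher and 16.2% lower, so this list did not stand above the background. HLA-B, low in both groups, had 2.89 and 4.03 CPM in IFNAR1sg MPS1i against 0.259 and 0.695 CPM in IFNAR1sg IFNb. PDIA3 (-0.80) and CANX (-0.61) went the other way, CANX only without exon-sharing regions (0.12 with them kept). Among 8 tested interferon and receptor genes of 21, the receptor kinase JAK2 was called higher, with 32.7 and 30.2 CPM in IFNAR1sg MPS1i against 12.2 and 11 CPM in IFNAR1sg IFNb (1.44 ± 0.19), and USP18 lower.

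The pulse libraries differed from IFNb libraries well beyond the antiviral genes, and 2 features of the libraries bear on those counts. The pulse libraries spread their reads over more regions, 935974 and 865209 with a read, against 669588 and 718978 in the IFNb libraries. Among the 3591 gene sums with the fewest mean reads (up to 15.8), 1427 were called higher and 34 lower (median 1.12). Sums this low can pass the filter through the pulse libraries alone, so that split is a description and also enters the share of all gene sums called higher. Among the 3587 with the most (137 and over), 564 were higher and 1423 lower (median -0.18). Over all regions 5778 of 89111 (6.48%) were called higher and 5211 (5.85%) lower, with 52.6% of calls higher, or 42.8% without TMM factors and 47.2% at a minimum count of 30. Over gene sums 4012 were higher and 2330 lower, so 63.3% of calls were higher, against 55.8% without TMM factors, 50.6% at a minimum count of 30 and 49.2% with TMM factors of the gene sums themselves (3304 higher and 3406 lower). A change near the median of all gene sums, 0.20, therefore depends on the scaling.

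The other feature was a set of genes that were far higher in both IFNAR1sg MPS1i libraries than in all others, and about 2-fold higher in replicate 1 than in replicate 2. NTM, a neuronal adhesion protein, had 319 and 155 CPM in IFNAR1sg MPS1i against 2.84 and 0.556 CPM in IFNAR1sg IFNb, 2.18 and 20.1 CPM in IFNAR1sg DMSO and 1.77 and 2.11 CPM in SCR MPS1i (7.07 ± 0.28). TENM2, a teneurin of synapses, had 166 and 80.4 CPM in IFNAR1sg MPS1i against 1.03 and 0.834 CPM in IFNAR1sg IFNb (7.01 ± 0.28), and 0.506 and 1.94 CPM in SCR MPS1i. Together with SDK1, ANO2, TENM3, EDIL3, FRMD6, MAGI2, NRG3, KIRREL3, FRMD5 and 2 genes known by identifier only, they made up 13 of the 15 gene sums called higher with the smallest p. Of the 13, ENSG00000253642 (3.40), ANO2 (1.88) and NRG3 (1.05) also rose with the pulse in SCR cells, to at most 4.80 CPM, and NTM fell there (-1.41).

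The same gap between replicates marked most of the large increases. Of 10309 gene sums with at least 100 reads in the 4 libraries, replicate 1 exceeded replicate 2 of IFNAR1sg MPS1i by over 1.5-fold in 871 (8.45%). Among sums called higher by up to 1 on the log2 scale it did so in 80 of 1208 (6.62%), and among those called higher by over 4 in 63 of 85 (74.1%). Of those 85, 40 were not called higher by the pulse in SCR cells. They held 11611 and 6007 reads in IFNAR1sg MPS1i against 194 and 212 reads in IFNAR1sg IFNb, with 291 and 706 in IFNAR1sg DMSO and 236 and 306 in SCR MPS1i. UBBP4 (at least 46.1-fold higher), HAPLN1 (at least 19.9-fold) and ANKRD1 (at least 14.7-fold) had 0 reads in both IFNb libraries, bounds that take 3 reads per library as the floor.

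**Figure D2:**
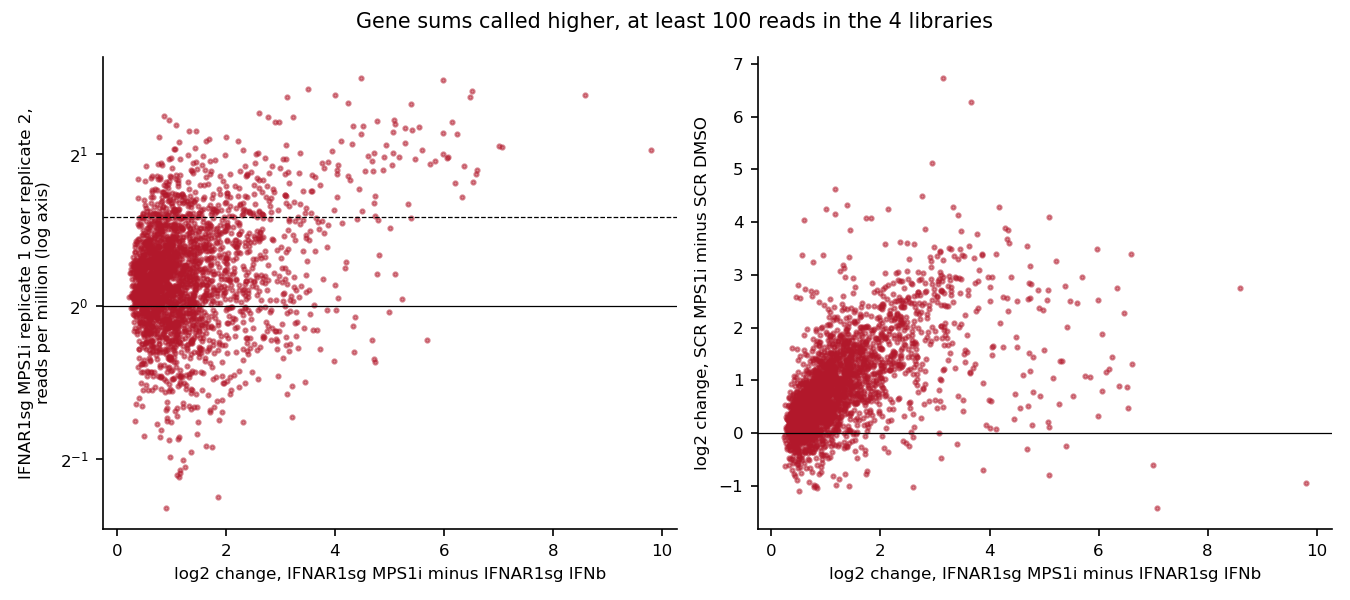
Gene sums called higher in IFNAR1sg MPS1i over IFNAR1sg IFNb with at least 100 reads in the 4 libraries. Left, the ratio of replicate 1 to replicate 2 in IFNAR1sg MPS1i (log axis, dashed line at 1.5) against the log2 change; right, the log2 change of SCR MPS1i over SCR DMSO against the same change. Past a change of 4 most points lie above the dashed line, and many show no change in SCR cells.

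Markers of other cell types were counted in the same gene sums. Fibroblast markers summed to 119 and 113 reads in IFNAR1sg MPS1i against 29 and 32 in IFNAR1sg IFNb, and to 71 and 111 in SCR MPS1i, with 5 and 3 of 11 markers at 0 against 8 and 8; the increase lay mainly in FAP, at 13.4 and 10.2 CPM in IFNAR1sg MPS1i against 1.42 and 3.2 CPM in IFNAR1sg IFNb. Immune markers summed to 68 and 39 reads in IFNAR1sg MPS1i against 11 and 5 in IFNAR1sg IFNb, with 7 and 8 of 13 at 0 against 10 and 9. CD8A, CD4 and ITGAM, all at or under 3.90 CPM, were called higher, calls that CD8A lost in 4 alternatives and ITGAM in 1. Sums this low can pass the filter through the pulse libraries alone, so these calls are a description. With exon-sharing regions kept, CD68 held 8 and 10 reads in IFNAR1sg MPS1i against 11 and 12 in IFNAR1sg IFNb, and CD14 held 2 and 0 against 4 and 0. Lung epithelial markers summed to 1469 and 1701 reads against 1990 and 1907, with 5 and 7 of 18 at 0 against 8 and 8. The part of other cells in any of these results was not tested.

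The pulse in SCR cells gave a separate measurement, since SCR MPS1i and SCR DMSO share no library with the IFNAR1sg comparison. Of the 4012 gene sums higher in IFNAR1sg MPS1i than in IFNAR1sg IFNb, 2342 (58.4%) were also higher in SCR MPS1i than in SCR DMSO, which is 73.6% of the 3182 higher there (22.2% of all). Of the 2330 lower, 1878 (80.6%) were also lower, which is 59.6% of the 3151 lower there (22% of all). The directions were opposite for 43 higher and 17 lower sums. Among sums with at least 100 reads in the 4 libraries, 85.4% of the 383 called higher by 2 to 4 also rose in SCR cells, and 52.9% of the 85 past 4.

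Of 35 tested p53 targets of 45, 20 were higher and 4 lower (median 0.63; 16 and 4 with the sums' own TMM factors). CDKN1A, the p21 inhibitor of cell-cycle kinases, had 19.7 and 22.4 CPM in IFNAR1sg MPS1i against 5.69 and 4.73 CPM in IFNAR1sg IFNb, and 4.37 and 3.91 CPM in IFNAR1sg DMSO (2.01 ± 0.24, adjusted p = 4.8e-12). Both pulse libraries stood far above every IFNb and DMSO library of IFNAR1sg cells, whose highest value was 5.69 CPM. BTG2, an antiproliferative factor, rose by 3.13 ± 0.44. PMAIP1, the death factor NOXA, rose by 1.63 ± 0.20 and the ribonucleotide reductase subunit RRM2B by 1.52 ± 0.24. The 4 lower members were FAS, PPM1D, TNFRSF10A and CMBL. The shares of all gene sums, 28% higher and 16.2% lower, are the background for this list and for those that follow.

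NF-kB targets and cytokines counted 12 higher and 1 lower of 20 tested of 33 (median 1.13). The chemokine CXCL8 had 18.5 and 11.9 CPM in IFNAR1sg MPS1i against 2.97 and 3.06 CPM in IFNAR1sg IFNb (2.32 ± 0.28, adjusted p = 6.7e-12), and CXCL5 had 82.1 and 66.6 CPM against 26.5 and 27.8 CPM (1.45 ± 0.14). CD83 rose by 2.90 ± 0.39, the inhibitor of apoptosis BIRC3 by 1.19 ± 0.20 and the NF-kB subunit RELB by 1.13 ± 0.17. AP-1 and immediate early genes counted 10 higher and 0 lower of 18 tested of 27 (median 0.89; 9 and 2 with the sums' own TMM factors). ATF3, a stress-induced repressor, had 43.9 and 44.7 CPM in IFNAR1sg MPS1i against 6.98 and 7.78 CPM in IFNAR1sg IFNb (2.58 ± 0.19, adjusted p = 3e-24). FOSL1 had 31.9 and 27.6 CPM in IFNAR1sg MPS1i against 11.5 and 10.4 CPM in IFNAR1sg IFNb (1.44 ± 0.20), and the feedback inhibitor SPRY4 rose by 2.40 ± 0.36.

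All 9 tested replication-dependent histone genes, of 56 listed, were higher, with a median of 1.62. The others did not pass the filter, and low sums can pass it through the pulse libraries alone, so the count is a description. H2BC5 had 17.3 and 19.9 CPM in IFNAR1sg MPS1i against 4.14 and 1.53 CPM in IFNAR1sg IFNb (2.69 ± 0.28), and H4C8 had 63.7 and 64.2 CPM against 27.1 and 29.2 CPM (1.18 ± 0.14). Groups did not overlap in either gene. YAP targets and matrix genes counted 12 higher and 3 lower of 25 tested of 30. TGFB2, a growth factor of that list, had 36 and 13.4 CPM in IFNAR1sg MPS1i against 1.81 and 2.5 CPM in IFNAR1sg IFNb (3.51 ± 0.33); its replicates differed as those of NTM and TENM2 did, and the pulse change in SCR cells was 0.42 and not called. Unfolded protein and integrated stress genes counted 5 higher and 5 lower of 18 tested of 28. Of all gene sums 28% were called higher and 16.2% lower, so the higher count was close to the background. ATF3 and the chaperone HSP90B1 (0.70 ± 0.17) were higher, and the amino acid transporters SLC3A2 (-1.07 ± 0.14), SLC7A11 (-0.78 ± 0.10) and SLC7A5 (-0.74 ± 0.10) were lower.

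**Figure D3:**
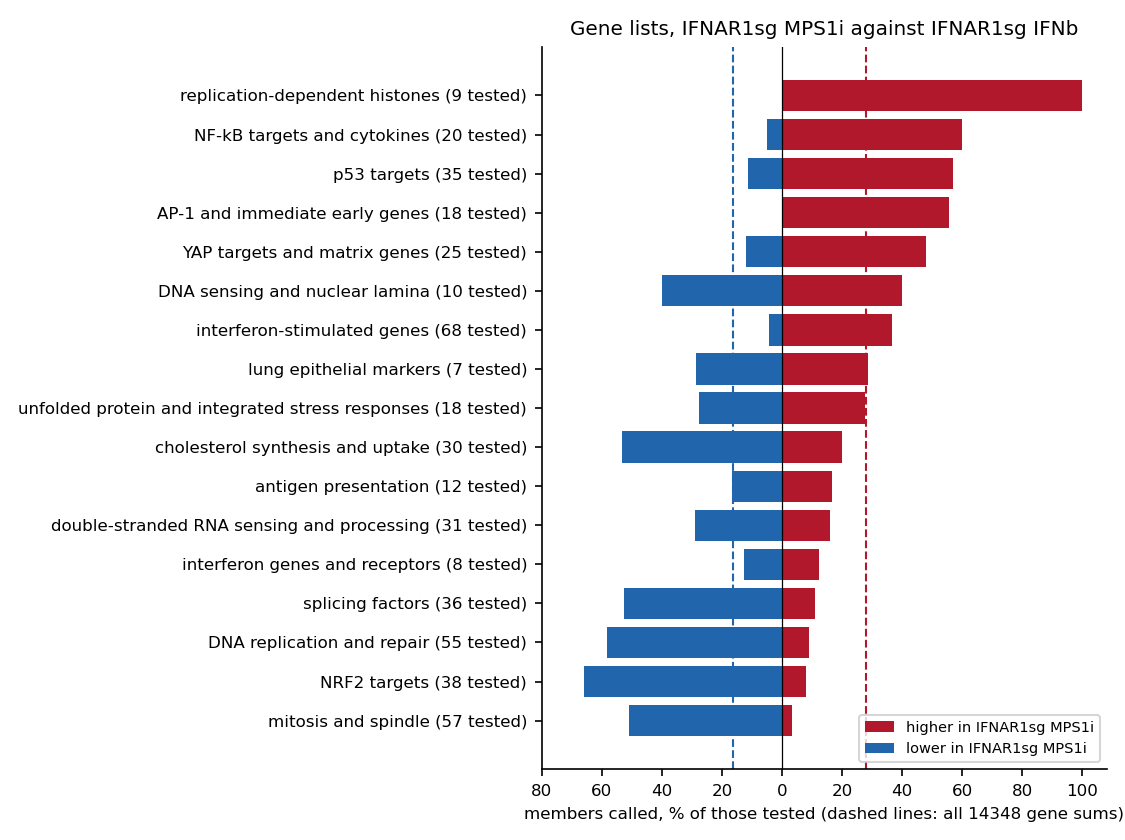
Percent of tested members of 17 gene lists called higher (red, to the right) or lower (blue, to the left) in IFNAR1sg MPS1i over IFNAR1sg IFNb; dashed lines mark 28% and 16.2%, the shares of all 14348 gene sums. Histone, NF-kB, p53 and AP-1 lists reach past the right line, and replication, NRF2, cholesterol, splicing and mitosis lists past the left one.

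Of 57 tested mitosis and spindle genes of 62, 29 were lower and 2 higher (median -0.44; 39 and 0 with exon-sharing regions kept). CCNB1, the mitotic cyclin B1, had 17.9 and 22.4 CPM in IFNAR1sg MPS1i against 70.5 and 63 CPM in IFNAR1sg IFNb, and 70.6 and 68.4 CPM in IFNAR1sg DMSO (-1.72 ± 0.15, adjusted p = 3.1e-20). Both pulse libraries lay far below every IFNb and DMSO library of IFNAR1sg cells, while SCR IFNb held 21.9 and 14.5 CPM. The spindle gene ASPM fell by 1.34, the condensin subunit NCAPD2 by 0.99, the centromeric histone CENPA by 0.94 and the cohesin protector SGO1 by 0.92. Of 55 tested replication and repair genes of 60, 32 were lower and 5 higher (median -0.55). The replication helicase subunit MCM5 had 10.4 and 11.4 CPM in IFNAR1sg MPS1i against 36.8 and 32.1 CPM in IFNAR1sg IFNb (-1.66 ± 0.19), and the repair gene BRCA1 had 21.7 and 25.5 CPM against 56.2 and 59.2 CPM (-1.29 ± 0.14). The 5 higher members included CCNE1 (1.82 ± 0.61) and CCNE2 (0.84 ± 0.34), the cyclins of entry into S phase.

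NRF2 targets, the genes of oxidative defence, counted 25 lower and 3 higher of 38 tested of 41 (median -0.43). ABCC1, a glutathione conjugate exporter, had 343 and 351 CPM in IFNAR1sg MPS1i against 855 and 978 CPM in IFNAR1sg IFNb (-1.40 ± 0.08, adjusted p = 4.8e-32), and thioredoxin reductase TXNRD1 had 885 and 889 CPM against 1527 and 1699 CPM (-0.86 ± 0.07). ME1, ABCC2 and CYP4F11 fell by 0.93, 1.02 and 1.08. Cholesterol and fatty acid genes counted 16 lower and 6 higher of 30 tested of 32 (median -0.56). ACACA, the committed enzyme of fatty acid synthesis, had 169 and 149 CPM in IFNAR1sg MPS1i against 391 and 432 CPM in IFNAR1sg IFNb (-1.37 ± 0.09), the sterol enzymes LSS and FDFT1 fell by 1.20 and 1.14, and HMGCS1 rose by 0.65 ± 0.11. The urea-cycle and tyrosine enzymes among the 15 lower sums with the smallest p were ASS1, at 248 and 239.6 CPM in IFNAR1sg MPS1i against 630.1 and 653 CPM in IFNAR1sg IFNb (-1.39 ± 0.09), CPS1 (-0.95 ± 0.08) and HPD (-1.85 ± 0.13).

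Splicing factor genes counted 19 lower and 4 higher of 36 tested of 41 (median -0.54). RBM39 had 88.6 and 78.1 CPM in IFNAR1sg MPS1i against 155 and 179 CPM in IFNAR1sg IFNb (-1.005 ± 0.11), and PTBP1, HNRNPC and NONO fell by 1.29, 0.95 and 1.53. HNRNPA2B1 was higher by 1.56 ± 0.20 in intronic reads and lower by 0.27 with exon-sharing regions kept, so its direction rests on which regions are summed. Other genes lower with the smallest p were the chaperonin subunit CCT3 (-1.71 ± 0.13), the pocket protein RBL1 (-1.70 ± 0.14) and the DNA repair kinase PRKDC (-1.33 ± 0.10). For comparison, IFNb against DMSO in IFNAR1sg cells called 1 mitosis gene higher and 0 lower, and 0 replication genes in either direction. It called 1 NRF2 target in each direction, and 0 NF-kB and 0 AP-1 genes. That comparison called 0.648% of all gene sums higher and 0.655% lower, so these counts lie near the background and are no trait of these lists. In SCR cells, whose IFNb libraries stood apart, IFNb against DMSO lowered 39.3% of all gene sums. The intronic regions named below as lower also fell there, with log2 changes from -2.38 (ABCC1) to -0.86 (LDHA). Lower values in such genes were thus not particular to the pulse. The pulse against DMSO in SCR cells called 22.2% of all gene sums higher and 22% lower. Of the same tested list members it called 36 mitosis genes lower and 1 higher, and 31 replication genes lower and 3 higher. It called 20 NRF2 targets lower and 5 higher, and 16 p53 targets higher and 2 lower. In addition, 13 NF-kB genes were higher and 0 lower, and all 9 histone genes were higher.

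Of the gene sums with the smallest p, POLR2A and SDCBP were the 2 higher ones besides these 13. POLR2A, the largest subunit of RNA polymerase II, had 174 and 163 CPM in IFNAR1sg MPS1i against 41 and 44.7 CPM in IFNAR1sg IFNb (1.98 ± 0.12, adjusted p = 2.2e-32), and 189 and 175 CPM in SCR MPS1i. SDCBP, the adaptor syntenin, had 147 and 129 CPM in IFNAR1sg MPS1i against 20.3 and 22.8 CPM in IFNAR1sg IFNb (2.68 ± 0.14, adjusted p = 4.8e-37), and 128 and 116 CPM in SCR MPS1i. In both genes the pulse libraries of both genotypes stood above every IFNb and DMSO library of IFNAR1sg cells.

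**Figure D4:**
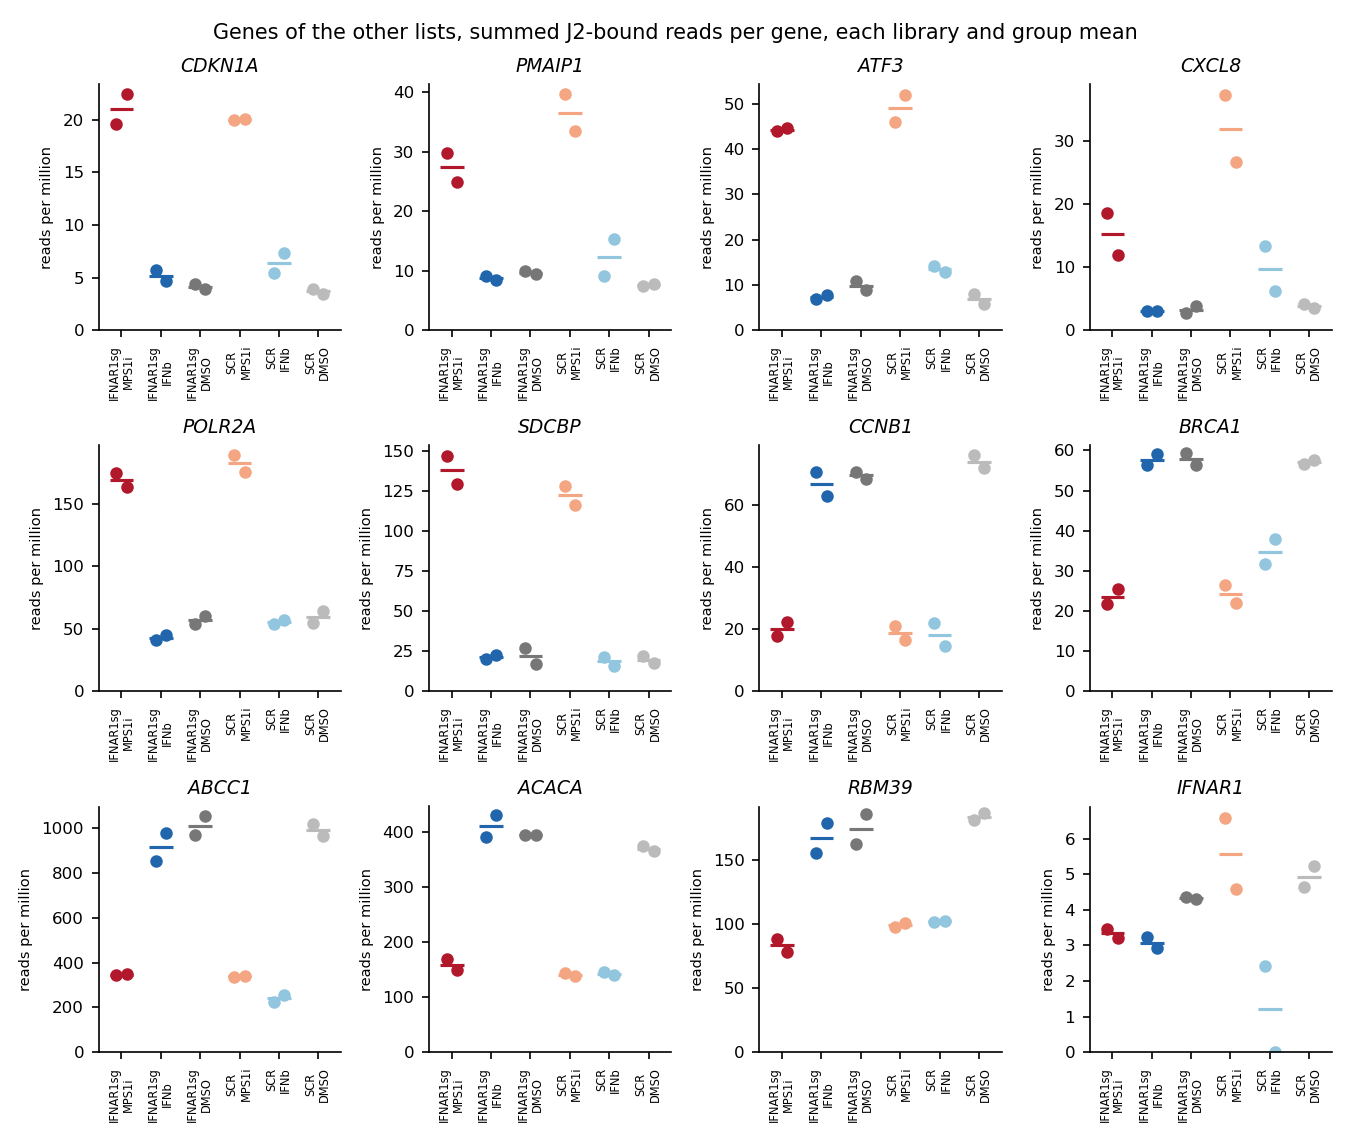
CPM of CDKN1A, PMAIP1, ATF3, CXCL8, POLR2A, SDCBP, CCNB1, BRCA1, ABCC1, ACACA, RBM39 and IFNAR1 in the 6 groups, each axis from 0; dots are libraries and the bar is the group mean. The first 6 genes are high in the MPS1i groups of both genotypes, CCNB1 to RBM39 are low there and also lower in SCR IFNb than in SCR DMSO, and IFNAR1 lies between 2.92 and 4.37 CPM in the IFNAR1sg groups.

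By position, most regions called higher lay outside genes of their strand. Of 15213 antisense regions tested, 12.7% were called higher and 0.69% lower (median 0.33), and of 12494 intergenic regions 13.7% and 1.25% (median 0.34). Antisense regions took 18.3% and 22.1% of reads in IFNAR1sg MPS1i against 18.6% and 16.3% in IFNAR1sg IFNb, so the groups overlapped. That share also differed between the SCR DMSO replicates (15.9% and 20.5%). Intergenic regions took 14.1% and 13.7% of reads in IFNAR1sg MPS1i against 9.71% and 10.3% in IFNAR1sg IFNb. The antisense count of 1932 higher fell to 1120 and 855 without IFNAR1sg IFNb replicate 1 or 2, and to 946 (median 0.15) without IFNAR1sg MPS1i replicate 2. The intergenic count of 1710 fell to between 836 and 1044 without any of the 4 libraries compared. Intronic regions were more often called lower, with 3.31% of 51774 higher and 8.59% lower (median -0.27), and without any of the 4 libraries 2037 to 2842 instead of 4448 were lower. No source states the strand setting of the authors' counting, so antisense reads cannot be fully told apart from reads of the gene opposite. Exon-sharing regions gave 4.39% of 9630 higher and 5.21% lower. Without TMM factors the directions of the antisense, intergenic and intronic classes stayed the same, with 1574, 1490 and 1384 regions higher against 166, 236 and 5271 lower. IFNb against DMSO in IFNAR1sg cells called 0.547% of all regions higher and 0.132% lower, and the higher ones included 211 antisense, 26 intergenic and 83 intronic regions.

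Antisense and intergenic regions were also placed by their distance past the end of the nearest gene upstream on their strand. Of 5787 regions within 1 kb, 12.4% were called higher; from 1 to 5 kb it was 14.2% of 5671, from 5 to 20 kb 15.8% of 5555, from 20 to 100 kb 13.1% of 6265, and beyond 100 kb 9.53% of 4429. The share was thus largest from 5 to 20 kb and smallest beyond 100 kb, while at most 1.33% were lower in any bin.

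Of the 12 named regions called higher, 9 lay outside any gene of their strand, and 6 began within 5 kb of a gene's end. The largest in reads ran from 68853902 to 68886318 on the plus strand of chromosome 12, 3216 bp past MDM2 and opposite the gene CPM. It held 205 and 189 CPM in IFNAR1sg MPS1i against 17.3 and 18.3 CPM in IFNAR1sg IFNb (3.47 ± 0.18, adjusted p = 3.6e-26), and 153 and 146 CPM in SCR MPS1i. MDM2 itself, which degrades p53, had 257 and 244 CPM in its introns in IFNAR1sg MPS1i against 191 and 206 CPM in IFNAR1sg IFNb (0.34 ± 0.10), so the region past its end changed far more than its introns.

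The region 2349 bp past SQSTM1, an autophagy receptor (chromosome 5, 179840427 to 179844927, plus), had 114 and 118 CPM in IFNAR1sg MPS1i against 17.8 and 15.6 CPM in IFNAR1sg IFNb (2.79 ± 0.19). The region 1255 bp past SPP1, the matrix protein osteopontin (chromosome 4, 87984681 to 87989733, plus), had 31.5 and 31.5 CPM in IFNAR1sg MPS1i against 1.55 and 0.834 CPM in IFNAR1sg IFNb (4.69 ± 0.33). That 4961 bp past DUSP5, a MAP kinase phosphatase (chromosome 10, 110516505 to 110518436, plus), had 35.7 and 32.1 CPM in IFNAR1sg MPS1i against 2.2 and 4.17 CPM in IFNAR1sg IFNb (3.41 ± 0.27). In each of these the pulse libraries stood many-fold above the IFNb libraries and did not overlap them. Regions past LY6E and COX6C on chromosome 8 rose by 3.07 ± 0.24 and 2.95 ± 0.21. A region opposite RGS12 (chromosome 4, 3342934 to 3439912, minus) had 101.3 and 100.1 CPM in IFNAR1sg MPS1i against 6.72 and 5.56 CPM in IFNAR1sg IFNb (4.03 ± 0.22). A region on the short arm of chromosome 21 (8998040 to 9001163, plus) had 52.5 and 30.2 CPM in IFNAR1sg MPS1i against 0.129 and 0.695 CPM in IFNAR1sg IFNb, but only 0.758 and 2.11 CPM in SCR MPS1i.

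Of the 12 named regions called lower, 10 were intronic, in ABCC1, ASS1, CCNB1, HPD, ACACA, LDHA, CPS1, TXNRD1, RBM39 and PRKDC. The steepest lay in an intron of LDHA, lactate dehydrogenase A (chromosome 11, 18405801 to 18405972, plus), with 2.89 and 2.55 CPM in IFNAR1sg MPS1i against 18.2 and 20.3 CPM in IFNAR1sg IFNb (-2.82 ± 0.29). Another lower region lay opposite the histone gene H2BC17 (chromosome 6, 27893409 to 27893985, minus) and had 34.2 and 45.6 CPM in IFNAR1sg MPS1i, 188 and 119 CPM in IFNAR1sg IFNb and 62.8 and 44.7 CPM in IFNAR1sg DMSO (-1.94 ± 0.19). It was thus the IFNb libraries that stood above the rest there (IFNb against DMSO, 1.52, adjusted p = 4.9e-09); 381 of its bases lie opposite an exon of H2BC17.

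**Figure D5:**
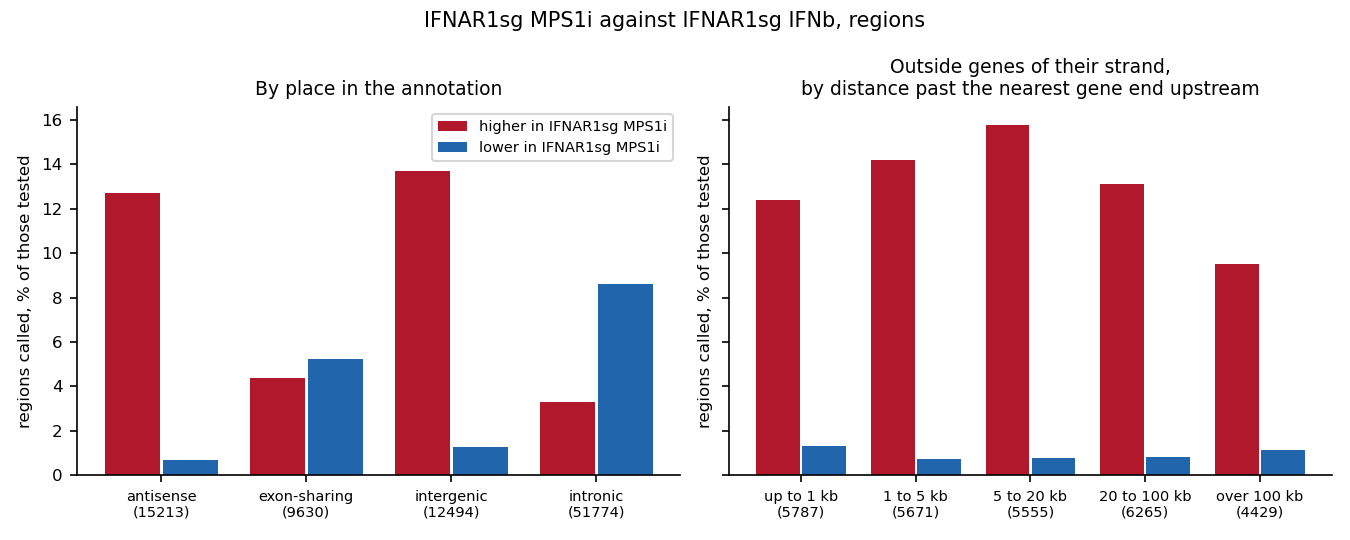
Percent of tested regions called higher (red) or lower (blue) in IFNAR1sg MPS1i over IFNAR1sg IFNb, by class (left) and, for regions outside genes of their strand, by distance past the nearest gene end upstream (right). Among called regions, antisense and intergenic ones are mostly higher (12.7% and 13.7% of those tested) and intronic ones mostly lower (8.59% of those tested). The distance bins peak at 15.8% higher.

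Repetitive elements can pair as inverted copies or be transcribed from both strands and so form double-stranded RNA. Alu elements, SINE copies spread through introns, are the main source of such RNA in human cells, and endogenous retroviruses (ERV) and L1 elements carry promoters of their own. Of 1786 repeat subfamilies tested, 495 (27.7%) were called higher and 57 (3.19%) lower, with a median of 0.30. With TMM factors of the repeat sums themselves the split became 216 higher and 251 lower (46.3% higher instead of 89.7%, median -0.03), so the balance of directions depends on the scaling. The 8 higher and 8 lower subfamilies with the smallest p kept their direction and their call under it. IFNb against DMSO in IFNAR1sg cells called 0 subfamilies higher (0%) and 1 lower (0.056%) in the edgeR test.

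LTR12C, the long terminal repeat of the HERV9 retroviruses which can act as a promoter, had the smallest p. It held 386 and 360 CPM in IFNAR1sg MPS1i against 150 and 159 CPM in IFNAR1sg IFNb, and 163 and 171 CPM in IFNAR1sg DMSO (1.27 ± 0.09, adjusted p = 1.6e-22; 0.95 with the sums' own TMM factors). Its 4 IFNb and DMSO libraries were alike and both pulse libraries were more than 2-fold above them. The LTR12 list counted 6 higher and 0 lower of 7 (5 and 0 with own factors), and its HERV9 list 3 of 3. Other ERV subfamilies with the smallest p were THE1B-int (184 and 177 CPM in IFNAR1sg MPS1i against 81.3 and 90.2 CPM in IFNAR1sg IFNb; 1.08 ± 0.10), MSTA-int (1.33 ± 0.14) and HERVL-int (0.96 ± 0.11).

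Among L1 elements, the LINE family that still moves in the human genome, 94 of 130 tested subfamilies of 132 were higher and 0 lower (42 and 8 with own factors), and all 9 of the young L1HS and L1PA2 to L1PA8 group were higher (8 with own factors). L1PB1 had 766 and 698 CPM in IFNAR1sg MPS1i against 378 and 388 CPM in IFNAR1sg IFNb (0.94 ± 0.08), L1PA5 rose by 0.72 ± 0.08 and L1PA7 by 0.70 ± 0.08. Of 51 Alu subfamilies, 0 were called higher and 1 lower in the edgeR test (35 lower with own factors), and the family sum was 40948 and 41737 CPM in IFNAR1sg MPS1i against 41528 and 46529 CPM in IFNAR1sg IFNb (-0.09 ± 0.07, adjusted p = 0.26). Alu libraries of the 2 groups overlapped.

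Among the 8 subfamilies called lower with the smallest p, 7 were simple repeats. The (TTCT)n repeat had 40.9 and 34.9 CPM in IFNAR1sg MPS1i against 73.8 and 90.6 CPM in IFNAR1sg IFNb (-1.12 ± 0.13). The exception was the ERV element PABL_B (-0.99 ± 0.21). The simple repeat (TGCATTT)n was higher, with 36.4 and 32.1 CPM in IFNAR1sg MPS1i against 3.75 and 4.86 CPM in IFNAR1sg IFNb (2.99 ± 0.23). Over all 771 simple repeats tested, 71 were higher and 48 lower, or 24 higher and 116 lower with own factors.

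At family level 26 of 55 (47.3%) were called higher and 0 (0%) lower in the edgeR test, which found 34 of the 55 at an unadjusted p under 0.05; the Wald test of DESeq2 also called 0 lower, 2 were lower without TMM factors, and 14 with the sums' own factors. Of the 26, 12 kept their call with those factors: Gypsy, centr, ERV1, ERVL-MaLR, Satellite, Gypsy?, ERVL, acro, L1, ERVK, telo and ERV1?. ERV1 held 4412 and 4058 CPM in IFNAR1sg MPS1i against 2751 and 2791 CPM in IFNAR1sg IFNb (0.61 ± 0.06; 0.29 with own factors). L1 held 35383 and 31704 CPM in IFNAR1sg MPS1i against 24280 and 25276 CPM in IFNAR1sg IFNb (0.44 ± 0.06; 0.11 with own factors). The centromeric centr satellites had 201 and 185 CPM in IFNAR1sg MPS1i against 109.6 and 113 CPM in IFNAR1sg IFNb (0.79 ± 0.08). The acro repeats of the short arms had 18.5 and 6.84 CPM in IFNAR1sg MPS1i against 1.42 and 0.695 CPM in IFNAR1sg IFNb (3.52 ± 0.49), replicates that differed as those of NTM and TENM2 did.

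Mitochondrial RNA was also higher after the pulse than after IFNb in most regions tested. Mitochondrial DNA is transcribed in full from both strands, and RNA of its light strand is normally degraded by PNPT1 and SUPV3L1, so its persistence gives double-stranded RNA. The minus-strand region that spans the mitochondrial genome had 18095 and 18622 reads in IFNAR1sg MPS1i against 12484 and 11215 reads in IFNAR1sg IFNb (0.69 ± 0.11, adjusted p = 1.1e-06). Against DMSO the pulse left it not called (-0.13) and IFNb lowered it (-0.82, adjusted p = 6.1e-08). The plus-strand region of the protein-coding genes (2746 to 16569) had 58342 and 43981 reads in IFNAR1sg MPS1i against 28845 and 27445 reads in IFNAR1sg IFNb (0.93 ± 0.10), from 0.38 with the pulse and -0.54 with IFNb. In CPM these were 8430 and 5903 against 3729 and 3814, so the pulse replicates differed widely. The plus-strand region from 0 to 877 was not called (0.77 ± 0.31, adjusted p = 0.09). PNPT1 had 36.7 and 36.1 CPM in IFNAR1sg MPS1i against 54 and 57.4 CPM in IFNAR1sg IFNb (-0.61 ± 0.13), with 35.5 and 37.4 CPM in IFNAR1sg DMSO, and SUPV3L1 was higher by 0.54 ± 0.21.

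Whether the gap between pulse and IFNb differed by genotype was tested directly. Of 14348 gene sums, 676 (4.71%) were higher and 3308 (23.1%) lower in the difference (MPS1i minus IFNb in IFNAR1sg, minus the same in SCR), or 1367 and 1520 with the sums' own TMM factors. Among the 68 interferon-stimulated genes 28 were higher and 0 lower in that difference (median 0.60). In SCR cells 24 of the 68 were lower after the pulse than after IFNb and 7 higher (3.46% and 36.7% of all gene sums). IFIT1 stood at 42.8 and 32.6 CPM after the pulse against 28.2 and 21.1 CPM after IFNb in IFNAR1sg cells, and at 104 and 85.6 CPM against 262 and 235 CPM in SCR cells. These values rest on the SCR IFNb libraries, which stood apart from all others with 295367 and 296843 regions with a read and 49.6% and 47.9% of reads in exon-sharing regions, against 33.2% to 39.7% in the other 10. Without both SCR IFNb libraries in the fit the IFNAR1sg comparison itself kept direction and call for 189 of 191 named features, called or not, and 2 lost their call.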

How the data were processed

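J2 immunoprecipitated RNA of 12 libraries (6 groups of 2) was sequenced, and the authors deposited 1 table of raw read counts per stranded genomic region. Per the submitters' processing notes, the tools included STAR, featureCounts, HOMER and the trimmers cutadapt, Trimmomatic and Trim Galore, on GRCh38/hg38; their versions and settings are not given in the sources used here. Library totals were 3739443 to 7430687 reads, which limits precision for features with few reads. Regions were placed on GENCODE genes; gene sums (30.8% of reads) and repeat sums (20.3%) leave out regions that share exon bases. Counts were tested with edgeR 4.0.16 (quasi-likelihood F-test, R 4.3.3) over all 12 libraries with 1 coefficient per group and TMM factors of the regions. The minimum count was 10, and calls were made at a Benjamini-Hochberg adjusted p under 0.05. The steps were tested on simulated gene sums with balanced changes. Those sums were scaled by their own TMM factors, so the simulation did not test the scaling by region factors. DESeq2 1.42.0, other filters and scalings, and fits without each library were alternatives. TMM factors of the sums themselves were added after the data were seen.

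Members and lists were chosen with earlier results of these data known. The text named up to 5 members per list with the smallest p, always IFNAR1, IFNB1, CDKN1A, ISG15 and CXCL10, the 15 higher and 15 lower gene sums with the smallest p, the 5 largest changes each way among sums averaging at least 20 reads, 12 non-overlapping regions each way (at most 1 per gene), 8 repeat subfamilies each way, called families, the 8 genotype differences each way, and the 5 smallest p for IFNb over DMSO. Other genes named (among them IFIT2, IFIT3, OAS2, PARP9, RNF213, EIF2AK2, MAVS, MDM2, PNPT1, CCNE1 and CCNE2) were picked after their values were seen. Replicate numbers did not pair the libraries (correlations of deviations from -0.07 to 0.11), so no block was used. Some members that this rule names are not reported here.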

Additional observations from a re-analysis of the deposited data

Results flagged for a closer look

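For 16 gene sums the gap between MPS1i and IFNb differed between genotypes by the interaction term of the edgeR fit (IFNAR1sg minus SCR, log2). In 8 it was lower in IFNAR1sg cells: ABCC1 (-1.90), ASS1 (-1.93), BASP1 (-2.01), CMIP (-1.74), PDE3A (-1.66), RIMKLB (-1.42), SLC7A11 (-1.62) and TXNRD1 (-1.39). RIMKLB (0.042) and TXNRD1 (0.35) changed sign when exon-sharing regions were kept. In the other 8 it was higher: GNGT1 (3.62), LIPA (2.10), MAGI2 (6.27), NTM (8.83), RMI2 (1.53), TENM2 (9.18), TENM3 (6.41) and TRIM5 (2.33). They were the 8 called in each direction with the smallest p.

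ABCC1 had 343 and 351 CPM in IFNAR1sg MPS1i against 855 and 978 CPM in IFNAR1sg IFNb, and 338 and 341 CPM in SCR MPS1i against 225 and 256 CPM in SCR IFNb. The pulse libraries of both genotypes were alike there, and the SCR IFNb libraries, which stood apart in their region counts, were the lowest. TRIM5, a retroviral restriction factor, had 36.4 and 45.8 CPM in IFNAR1sg MPS1i against 42.8 and 33.6 CPM in IFNAR1sg IFNb, and 98.8 and 116 CPM in SCR MPS1i against 525 and 488 CPM in SCR IFNb. NTM, TENM2, TENM3 and MAGI2 belong to the genes that were far higher in the IFNAR1sg MPS1i libraries than elsewhere. The part of the SCR IFNb libraries in these differences was not tested.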

How the results depend on the processing

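Over 207 named features and all settings, 4511 of 4651 values kept direction and call, 119 lost the call, 2 gained it and 19 reversed; unless stated, the cause was not tested. Leaving out 1 library left 2576 to 6014 regions higher and 2503 to 5615 lower, and the 4 libraries compared each lowered these counts by over 1.5 times, to 3821 and 3398 without IFNAR1sg MPS1i replicate 1, 3040 and 2716 without its replicate 2, 2899 and 2933 without IFNAR1sg IFNb replicate 1, and 2576 and 2503 without its replicate 2. It left 300 to 510 repeat subfamilies higher and 30 to 61 lower, 0 to 1 families lower, and, for IFNb over DMSO, 50 to 112 gene sums higher and 26 to 146 lower. Without a filter on low counts 2421 regions were higher and 2119 lower, and by DESeq2 2655 and 2265, with 27 subfamilies lower; a minimum count of 30 gave 3238 regions higher and 3616 lower, 2408 gene sums higher and 2354 lower, and 2190 higher for the pulse over DMSO, with fewer features tested.

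With the sums' own TMM factors 216 subfamilies were higher and 251 lower, and 12 families and 14; lower families were 2 without TMM factors and 1 with exon-sharing regions kept. The genotype difference called 428 gene sums higher without TMM factors, 357 without a filter, 392 at a minimum count of 30, 394 by DESeq2, 1273 (and 2204 lower) with exon-sharing regions kept, and 1367 (and 1520 lower) with own factors. IFNb over DMSO gave 204 higher with exon-sharing regions kept, and 169 lower without TMM factors and 35 without a filter.

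Reversed with exon-sharing regions kept were ZC3HAV1 (0.34), CANX (0.12), HNRNPA2B1 (-0.27), KRT8 (-0.41) and the genotype differences of TXNRD1 (0.35) and RIMKLB (0.042). With own factors they were IFNAR1 (-0.050) and the families LTR (-0.00123), Low_complexity (-0.041), RTE-BovB (-0.035), RTE-X (-0.077), SVA (-0.037), TcMar-Mariner (-0.15) and hAT (-0.019). ACTA2 was 0.018 with a replicate block. Without 1 library ACTA2 ranged from -0.97 to 0.56 (0.53 without IFNAR1sg MPS1i replicate 1), IFNLR1 from -0.84 to 0.031 and IFNGR1 from -0.43 to 0.038. The replicate block gave 5911 regions higher and 5400 lower, 3996 and 2357 gene sums, 517 and 62 subfamilies, and 33 and 0 families; the numbers do not pair the libraries.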
